A study of Drosophila melanogaster with 12 samples.

Results

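To find which transcripts carry N6-methyladenosine (m6A) in larval fly brains that are rich in neural stem cells, the enrichment of RNA by an anti-m6A antibody was compared between neuroblast-biased brains and brains without the m6A methyltransferase. The comparison was between 8 of the 12 libraries of the study, 4 from neuroblast-biased brains and 4 from *Mettl3* null brains. In each case 2 were libraries of immunoprecipitated RNA (meRIP) and 2 of RNA that was not immunoprecipitated (input). In the neuroblast-biased genotype (insc_aPKC_CAAX), *insc-Gal4* drove *UAS-aPKC* CAAX, a membrane-targeted form of atypical protein kinase C, in neuroblasts, which then divide symmetrically to give more neuroblasts. The *Mettl3* null larvae lacked a working methyltransferase in every cell and carried no transgene according to the labels, so that their meRIP libraries measured what the antibody and beads bind without Mettl3-dependent methylation. A further 4 libraries, 2 meRIP and 2 input, came from wildtype (Oregon_R) brains, the neuron-biased source, and are given beside the others. They were also part of the fit, in the filter on low counts, the scaling of the libraries and the estimate of spread. All brain lobes were dissected from larvae at the L3 stage raised at 25 °C without further treatment, and the neuroblast-biased brains still contained neurons and glia. The study's methods call the replicates biological, and the RNA of a genotype was divided between input and meRIP. No label states which libraries share a dissection, and the p-values measure the spread between replicate libraries, estimated over all 12.

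m6A is placed on mRNA in the nucleus by a complex in which Mettl3 is the catalytic subunit and Mettl14 its partner, with fl(2)d, vir, nito, Flacc and Hakai as further subunits. In flies the mark lies mainly in 5′ untranslated regions (UTRs), within sequences that share the core letters AAAC, and is bound by the nuclear reader Ythdc1 and the cytoplasmic reader Ythdf. Larval neuroblasts divide asymmetrically, renewing themselves and setting aside a smaller daughter that gives neurons or glia, and a series of transcription factors and RNA-binding proteins sets which neurons are made at which time.

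The 4 neuroblast-biased and *Mettl3* null input libraries held 6005731 to 10828815 counts and the 4 meRIP libraries 7870449 to 31352131. The share of *lncRNA:cherub*, a non-coding RNA of neuroblasts, was 7.36% and 8.37% in neuroblast-biased input and 15.5% and 18.4% in meRIP, against 1.24% to 2.78% of counts without *Mettl3*. *Mettl3* was at 13.4 and 28.5 CPM (counts per 1000000, 102 and 309 counts) in neuroblast-biased input and at 9.06 and 2.26 CPM (121 and 30 counts) in *Mettl3* null input, a log2 fold change of 2.21 (limma-voom adjusted p = 0.0308). The genotypes did not overlap, and whether the remaining reads span the missing part of the gene cannot be told from counts per gene. *aPKC* was higher in neuroblast-biased input by a log2 fold change of 1.09 (limma-voom adjusted p = 0.00186). Markers followed the labels: all 7 neuroblast markers tested were called higher in neuroblast-biased input, set against *Mettl3* null input, and all 8 neuron markers lower, and the summed neuron markers were at 1106 and 1161 CPM against 4435 and 4838. Of 6 glial markers 4 were called lower. Summed salivary gland markers were at 0 CPM in both neuroblast-biased inputs and at 10.2 and 17.1 CPM in *Mettl3* null inputs; summed fat body markers were at 15.1 to 30.3 and 20.1 to 85.8 CPM, hemocyte markers at 167 to 214 and 217 to 313 CPM, ring gland markers at 13.6 to 36.6 and 47.5 to 48.8 CPM and muscle markers at 13.2 to 18.0 and 30.2 to 39.8 CPM. Wildtype inputs held more of 2 of these sets, with salivary gland markers at 214.4 and 211.4 CPM and ring gland markers at 190.7 and 174.5 CPM. Their fat body markers were at 67.99 and 86.04, hemocyte markers at 185.7 and 244.5 and muscle markers at 41.49 and 18.91 CPM.

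In the immunoprecipitation, 442 of 9918 genes tested were more enriched from neuroblast-biased brains, relative to *Mettl3* null (limma-voom adjusted p under 0.05 on the difference of the meRIP to input log ratios), and 24 were less enriched. These are 4.46% and 0.242% of the genes tested, and the median log2 fold change over all genes was 0.05. At an unadjusted p under 0.05 there were 1367 genes on the higher and 468 on the lower side. The 442 comprised 428 protein-coding genes and 13 non-coding RNAs among those with an annotated type. The meRIP CPM of a library over the mean input CPM of its genotype, called the ratio here, was defined for 419 of them; the other 23 had no reads in either input library of neuroblast-biased brains. The median ratio of the 419 was 3.89 in neuroblast-biased brains (25th to 75th percentile 2.94 to 5.43) and 1.10 in *Mettl3* null brains (0.892 to 1.35), while over all genes tested the medians were 1.03 and 0.98. Both neuroblast-biased libraries lay above both *Mettl3* null libraries for all 419, which was also the case for 37.9% of all genes with a defined ratio. The median log2 fold change of the 442 was 1.81; 17 were below 1, 256 between 1 and 2, 118 between 2 and 3, and 51 at 3 or more. Both ratios of a genotype share the mean input of that genotype, and the neuroblast-biased input libraries differed most from each other (SD of the log2 difference between replicates 1.15 over 6335 genes, against 0.405 for the neuroblast-biased meRIP libraries).

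**Figure D1:**
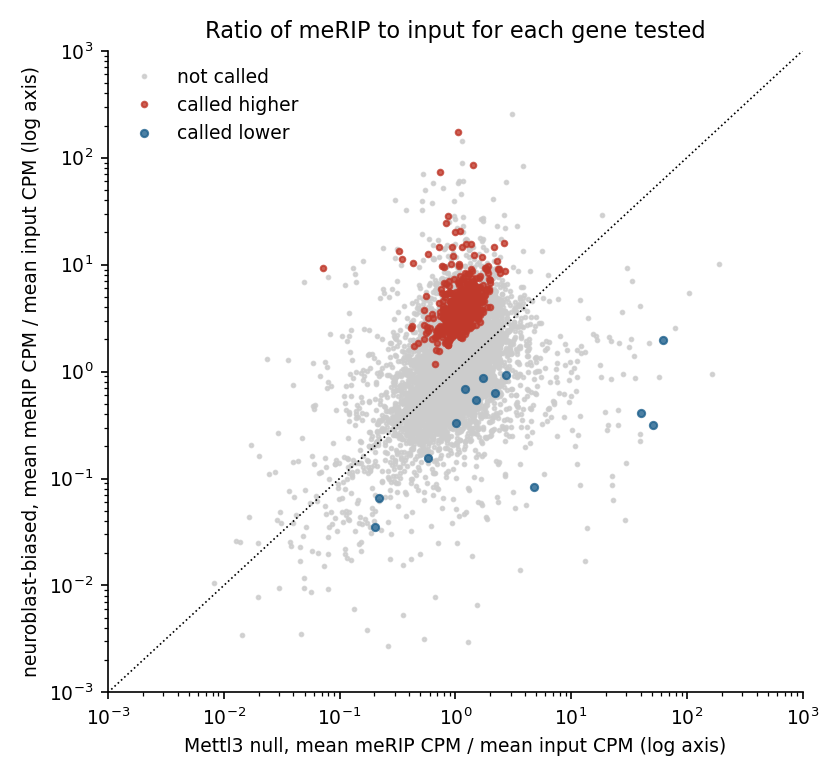
Mean meRIP CPM over mean input CPM of each gene tested in *Mettl3* null brains (x, log axis) and neuroblast-biased brains (y, log axis), n = 2 libraries a group, with genes at 0 left out; red genes were called higher, blue genes lower and grey genes were not called. The red genes sit above the dotted line of equal ratios, around a median of 3.89 on the y axis and 1.10 on the x axis.

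How many of these calls hold depended on single libraries. Without replicate 1 of the *Mettl3* null meRIP libraries 88 genes were called higher, without replicate 1 of the neuroblast-biased meRIP libraries 779, and 82 of the 442 kept their call under all 24 alternatives tried. The 24 are 12 settings and 12 fits that each left out 1 library with the tested genes held. Fits that left out a library with the filter made again are not among them, and not all of the 82 kept their call in those. The genes described below as kept throughout are among these 82, and the term refers to the 24 alone.

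The 15 genes with the largest rises were taken from those with a mean of at least 10 CPM over the 8 libraries and at least 10 counts in each of the 4 input libraries. *fz*, the Frizzled receptor for Wnt ligands and for planar polarity, had neuroblast-biased ratios of 3.71 and 6.44 against *Mettl3* null ratios of 0.487 and 0.619, a log2 fold change of 3.19 (SE 0.439, limma-voom adjusted p = 0.00253). *cta*, a G protein alpha subunit of the Fog pathway, had ratios of 7.29 and 11.9 against 0.678 and 0.917, a log2 fold change of 3.59 (SE 0.497). *Kr-h1*, a zinc-finger factor of the juvenile hormone response, had ratios of 11.8 and 19.5 against 0.995 and 1.76 (log2 fold change 3.58, SE 0.456). Each of these genes was kept throughout. *PRL-1*, a protein phosphatase, had the largest log2 fold change of the 15, 4.48 (SE 0.902), with ratios of 14.0 and 26.5 against 0.651 and 1.32. It rested on 64 and 138 counts in the neuroblast-biased inputs, and 1 of the 24 alternatives lost it. *TfAP-2*, a transcription factor, was kept throughout with a log2 fold change of 2.87, as were *side-VI*, a member of the Sidestep family of surface proteins, with 3.02 and *CG42238* with 3.15.

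The remaining 8 of the 15 ranged from 2.82 for *fj*, a Golgi kinase of the Fat pathway, to 3.74 for *babos*. They included *Dop2R*, a dopamine receptor (3.13), *Kdm4B*, a histone demethylase (3.09), the non-coding RNAs *lncRNA:CR31044* (3.04) and *lncRNA:CR43650* (2.89), and the transporters of the mitochondrial inner membrane *Sfxn2* (2.87) and *CG1907* (2.88). *fj* was lost under 17 of the 24 alternatives. Counts in the neuroblast-biased inputs were low or far apart for *babos* (15 and 90), *fj* (52 and 388) and *Dop2R* (54 and 406). Exons of other genes overlapped 73.1% of the exon length of *PRL-1*, 78.6% of *Kr-h1* and 84.8% of *Kdm4B*, and since strand use in the counting is not stated, their reads cannot be separated from those of the overlapping genes. Among all 442, 25 had such an overlap over more than 20% of their exons.

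**Figure D2:**
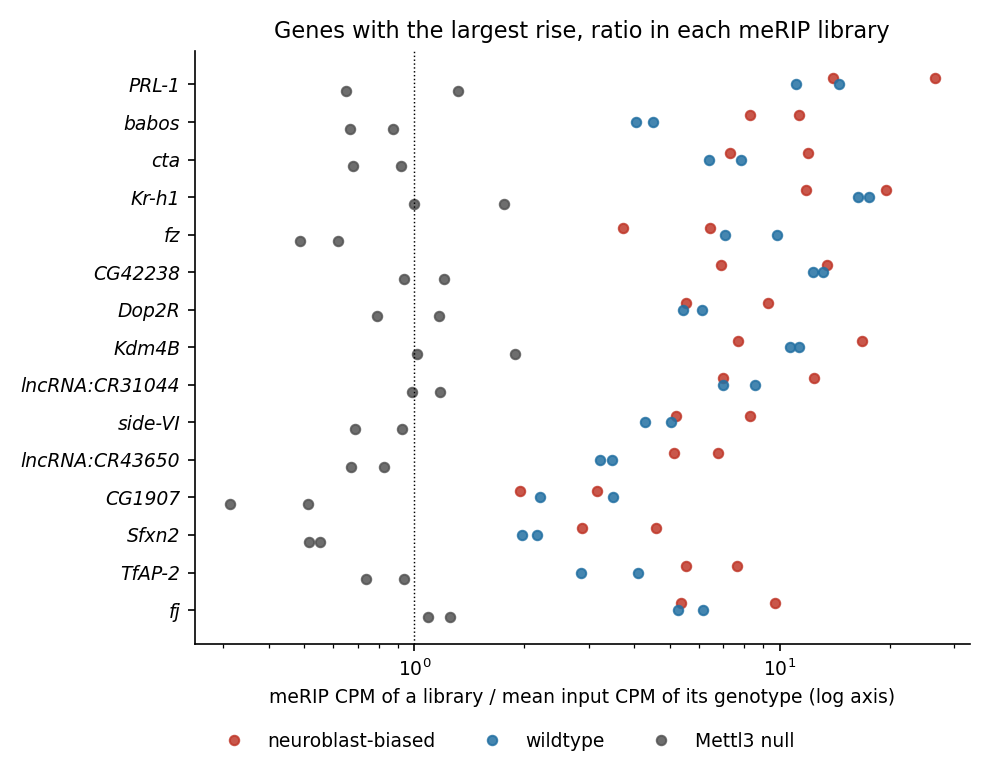
Ratio of each meRIP library to the mean input of its genotype (x, log axis) for the 15 largest rises by the naming rule. Each point is a library, 2 a genotype (red neuroblast-biased, blue wildtype, grey *Mettl3* null), and the dotted line marks a ratio of 1. By the naming rule all neuroblast-biased points lie to the right of the *Mettl3* null points, with *PRL-1* at 14.0 and 26.5 against 0.651 and 1.32.

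The sequence shared by fly m6A sites lies in the 5′ UTRs of most of these transcripts, and a few examples are printed so that the motif can be seen in genes the results turn on. Each is 30 bases around an AAAC, in capitals, on the transcript strand. The AAAC is the one nearest to the start codon with 13 bases of 5′ UTR on each side and no intron within the window. The bases come from the RefSeq genome (release 6, the assembly of BDGP6) at the 5′ UTR of the Ensembl canonical transcript. A match says only that these letters are present. The windows lie at chr3L:14274897-14274926 (plus strand) for *fz*, chr2L:6092063-6092092 (plus) for *Kr-h1*, chrX:9730408-9730437 (plus) for *Sp1*, chrX:3135618-3135647 (plus) for *N*, chr2L:19190685-19190714 (plus) for *drl*, chrX:4203276-4203305 (minus) for *Fas2*, chrX:15909116-15909145 (minus) for *CycD* and chr3L:19044441-19044470 (minus) for *nkd*.
fz: gagtgaagtttttAAACagggaaaataaat
Kr-h1: attattaggaggaAAACctgtatggagcag
Sp1: caaagcagaagcaAAACagacagcatcatt
N: gagtagaggtgaaAAACtggaaaagtggtt
drl: tcttattgcgactAAACaaccggcggatta
Fas2: ggggaaaactagaAAACtactacaactgca
CycD: aatccatagctttAAACggaacgtatggcc
nkd: aaacggaaaatagAAACaccgaaaaatcca
The 5′ UTRs these came from hold 4 to 19 AAAC in 387 to 1082 bases, and the AAAC printed ends 19 to 141 bases before the start codon. Among the called genes that were named and searched for such a window, *dlg1*, *Ythdc1*, *RpL35* and *CG42238* had no AAAC in that 5′ UTR. This is not a full list, as 96.0% of the 5′ UTRs of all called protein-coding genes held an AAAC.

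Transcripts of the called genes were long, and their 5′ UTRs in particular. Over protein-coding genes, the median 5′ UTR was 664 bases for the genes called higher and 169 bases for all genes tested, or 189 bases for genes not called but with a mean of at least 10 CPM. The median coding sequence was 2230 against 1440 bases, the median 3′ UTR 932 against 280 bases, and the median span of the gene 22700 against 3040 bases. At least 1 AAAC was present in 96.0% of the 5′ UTRs of called genes and in 73.6% of all, with medians of 7 and 2 per UTR. Per kilobase of 5′ UTR the density was closer, 11.7 against 9.92 AAAC, and in the first 100 bases of UTRs of at least that length AAAC was present in 49.9% of called genes and 54.4% of all. CAAA, which overlaps AAAC by 3 letters, had a density of 13.2 against 11.3 per kilobase and GGAC, the core of the mammalian motif, 2.0 against 2.01 (all searched on the transcript strand only). Called genes were also better counted, with a median input of 80.1 CPM in neuroblast-biased and 131 CPM in *Mettl3* null brains against 18.6 and 19.6 CPM for all genes, and the part of level and length in the calls was not tested. Of the 442, 19.5% lay on the X chromosome, as did 16.9% of all genes tested.

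To describe the functions of the enriched transcripts, 26 lists of genes were used, which together held 832 tested genes and 111 of the 442. The share of members called higher ran from 59.5% for axon guidance to 0% for mitochondrial ribosomal proteins, the respiratory chain and the proteasome, against 4.46% of all genes tested. No list had a member called lower; the respiratory chain list holds nuclear genes only. Signalling pathways and transcription factors stood between these, with 29.7% of EGFR, FGF and MAPK genes, 26.7% of Wnt genes, 25% of BMP and activin genes, 24% of both neuroblast self-renewal and temporal patterning genes, and 22.9% of neuronal fate factors. Ribosomal protein, respiratory chain and proteasome genes lay below the background. These counts were moved by single libraries: in each list with more than 2 calls, the fewest came without *Mettl3* null meRIP replicate 1 and the most without neuroblast-biased meRIP replicate 1, and the ranges are given with the lists below.

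**Figure D3:**
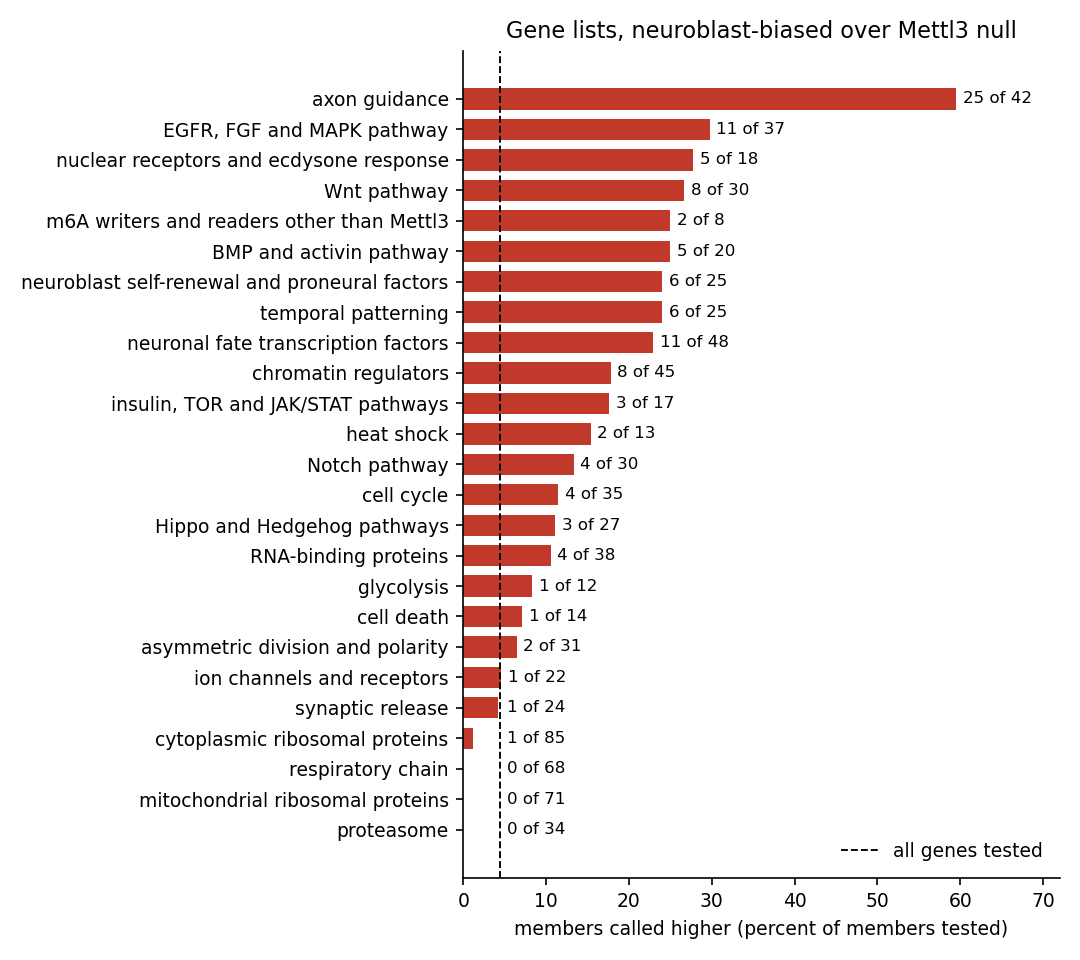
Percent of tested members called higher in neuroblast-biased over *Mettl3* null brains for 25 of the 26 lists, with the counts printed beside the bars; the dashed line is the 4.46% of all genes tested. Axon guidance leads with 25 of 42 and the proteasome, respiratory chain and mitochondrial ribosomal proteins are at 0.

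Axon guidance genes, which encode the ligands, receptors and adhesion proteins that steer growing axons, had 25 of 42 members called higher, with a list median of 1.45. Among the ligands, *Sema2b*, a secreted semaphorin, had ratios of 5.58 and 8.19 against 1.10 and 1.25 (log2 fold change 2.56, SE 0.391, limma-voom adjusted p = 0.00278), and *NetB*, a netrin, 2.56 and 2.78 against 1.10 and 1.18 (1.23). *sli*, the repellent read by Robo receptors, rose by the least of the 25, with a log2 fold change of 0.85. Among the receptors, *drl*, the receptor for Wnt5, had ratios of 4.77 and 5.87 against 0.912 and 0.741 (log2 fold change 2.67, SE 0.39, limma-voom adjusted p = 0.0027). *robo2*, of which 41% of the exon length overlaps another gene, had 2.68 and 3.35 against 0.809 and 0.822 (log2 fold change 1.89, SE 0.268), while *robo3* rose by 1.47 and *robo1* had ratios of 1.11 and 1.33 against 0.947 and 0.931, a log2 fold change of 0.36 that was not called. *PlexB* (2.29), *Lar* (2.52, with 83.6% of its exon length shared with another gene), *unc-5* (1.33) and *fra*, the netrin receptor (1.44), were called, and *PlexA* (-0.34) and *Ptp69D* (0.00) were not.

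Adhesion proteins and proteoglycans of the same list were called as well. *Fas2*, the fly NCAM homologue, had ratios of 3.59 and 5.89 against 0.949 and 1.09 (log2 fold change 2.19, SE 0.321, limma-voom adjusted p = 0.0027). *side* rose by 2.47 and *beat-Ia*, its receptor on motor axons, by 2.77, the latter from 64 and 113 counts in the neuroblast-biased inputs. The glypicans *dally* (2.39) and *dlp* (2.08), which hold Wnt, Hedgehog and BMP ligands at the cell surface, were both called. The members not called included *Sdc* (0.16), *tutl* (-0.08) and *Ephrin*, with -0.67 the lowest of the 42. Leaving out 1 library moved the count of 25 to between 10 (without *Mettl3* null meRIP replicate 1) and 30 (without neuroblast-biased meRIP replicate 1), and it was 13 with library size alone in place of TMM factors and 14 with sample quality weights; 8 of the 25 were kept throughout.

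**Figure D4:**
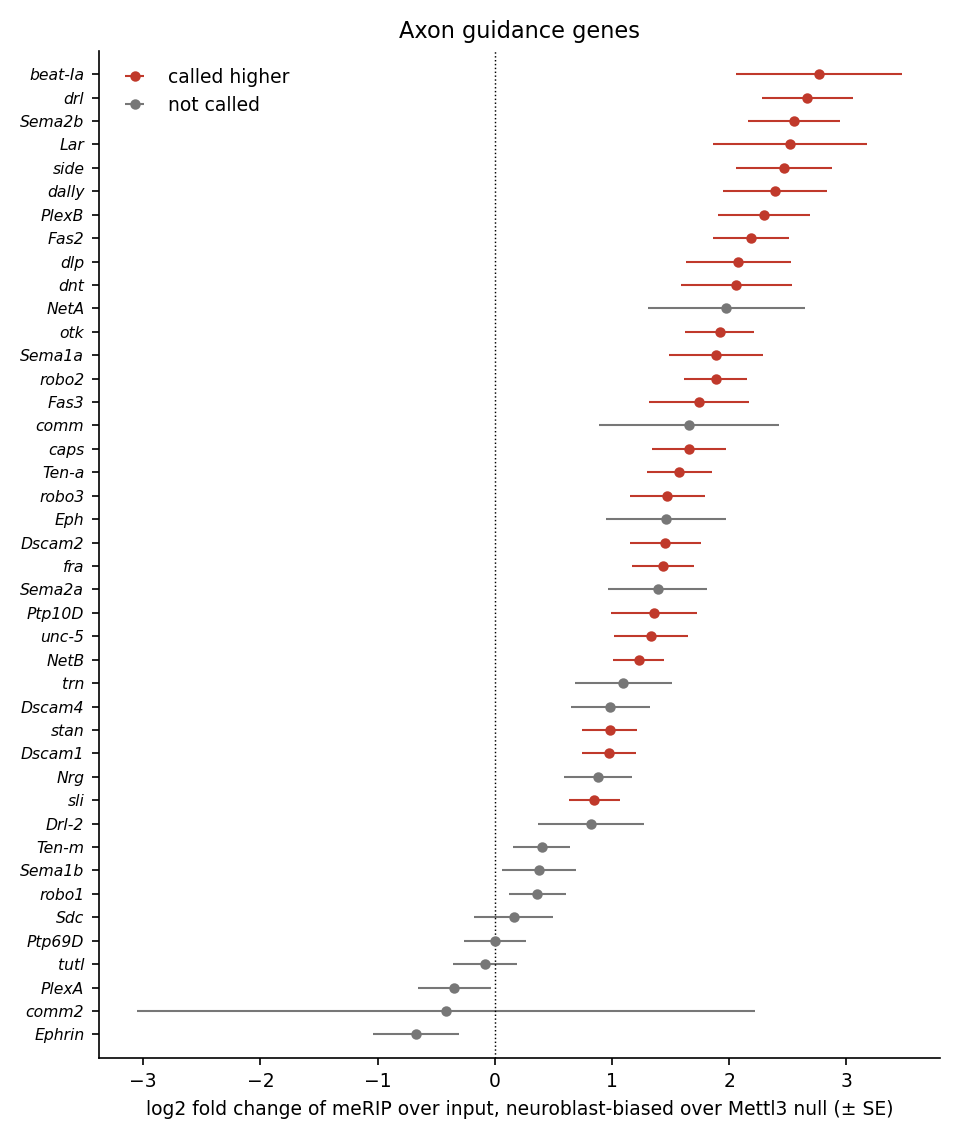
Log2 fold change of meRIP over input, neuroblast-biased over *Mettl3* null, for the 42 axon guidance genes tested, with the standard error of the limma-voom model (2 libraries a group); red genes were called and grey genes were not. The 25 called genes run from *sli* at 0.85 to *beat-Ia* at 2.77.

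Receptors and regulators of the Wnt pathway made up most of its 8 called members of 30. Beside *fz*, the second Frizzled receptor *fz2* had ratios of 4.29 and 7.66 against 1.5 and 1.58 (log2 fold change 1.89, SE 0.337), and *nkd*, an inhibitor that is itself induced by Wnt, 4.98 and 7.85 against 1.14 and 1.03 (log2 fold change 2.47, SE 0.373, limma-voom adjusted p = 0.0027). All 3 were kept throughout. The kinase *sgg*, the fly GSK3, rose by 1.67, the ubiquitin ligase subunit *slmb* by 1.63, the kinases *gish* and *nmo* by 1.53 and 1.5, and the ligand *Wnt4* by 1.62. Leaving out a library gave 4 to 11 calls. The core components *arm* (-0.42), the fly beta-catenin, and *dsh* (0.23) were not called.

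In the EGFR, FGF and MAPK list 11 of 37 members were called. *aop*, the repressor that MAPK signalling removes, had ratios of 6.33 and 9.93 against 1.27 and 1.24 (log2 fold change 2.64, SE 0.392, limma-voom adjusted p = 0.0027), and *pnt*, the activator of the same targets, 3.94 and 5.62 against 1.18 and 1.13 (1.99, SE 0.344). Both were kept throughout. The receptor *Egfr* (1.61), the ligand carrier *S* (1.83), the FGF ligand *pyr* (2.15), the inhibitors *aos* (2.35) and *kek1* (1.64), the phosphatase *Mkp3* (1.87), the adaptor *drk* (1.44) and the repressor *cic* (0.90) were called with *PRL-1*. The kinase cascade itself was not, with *Raf* at -0.14, *Dsor1* at 0.77 and *rl* at 1.03. Leaving out a library moved the 11 to between 2 and 19, and 2 of them were kept throughout.

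Other pathways had fewer called members. In the Notch pathway 4 of 30 were called: the receptor *N*, with ratios of 2.75 and 3.62 against 0.832 and 1.04 (log2 fold change 1.77, SE 0.247, limma-voom adjusted p = 0.00253), the protease *kuz* that cleaves it (1.71, SE 0.299), the transcription factor *Su(H)* (1.99) and the inhibitor *numb* (1.72). *N* and *kuz* were kept throughout, and leaving out a library gave 2 to 7 calls. In the BMP and activin list 5 of 20 were called, namely the receptors *put* (2.36) and *babo* (1.35), the inhibitor *Dad* (2.35), *kek5* (1.64, kept throughout) and the ligand *dpp*. The log2 fold change of *dpp*, 6.30 (SE 1.41), rested on 0 and 6 counts in the neuroblast-biased inputs beside 509 and 563 in meRIP, so its size is poorly fixed. Leaving out a library gave 1 to 7 calls in this list. In the Hippo and Hedgehog list the calls were *fj*, the factor *sd* (1.75) and the Hedgehog receptor *ptc* (1.53), 3 of 27 (0 to 7 when a library was left out). Among insulin, TOR and JAK/STAT genes, *InR* (1.52), *Socs36E* (1.29) and *Stat92E* (1.23) were called, 3 of 17. *Stat92E* was lost under 17 and *Socs36E* under 12 of the 24 alternatives, and the list had 0 to 5 calls when a library was left out.

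Transcription factors of neuroblasts were called in part. Of the 25 self-renewal and proneural factors, 6 were called, and 2 to 8 when a library was left out. *Sp1*, which is needed for type II neuroblasts, had the lowest p of them, with ratios of 6.12 and 7.23 against 1.15 and 1.02 (log2 fold change 2.57, SE 0.325, limma-voom adjusted p = 0.00243). *hth*, a homeodomain cofactor, reached ratios of 6.32 and 12.1, although its *Mettl3* null ratios of 2.22 and 2.50 were also above 1 (log2 fold change 1.89). *dpn* and *klu*, repressors that keep neuroblasts in self-renewal, rose by 1.93 and 1.32. Exons of another gene overlap 59.3% of the exon length of *dpn*. *SoxN* rose by 1.04. *ase*, a proneural factor, had ratios of 2.02 and 2.48 against 1.43 and 1.21, a log2 fold change of 0.72 (SE 0.32) that was not called (limma-voom adjusted p = 0.239), and *wor* (-0.25) and *grh* (0.05) were not called. Of 31 genes for asymmetric division and polarity, *numb* and *dlg1* (1.03) were called, or 6.45% against 4.46% of all genes tested. Leaving out a library gave 0 to 7 calls. *mira* (0.70), *brat* (0.38), *insc* (0.44) and *pros* (0.63) were not called.

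Of 25 tested genes of temporal patterning 6 were called, and the median of the list was 1.43. Leaving out a library gave 1 to 13 calls, and 1 gene was kept throughout. *EcR*, the ecdysone receptor, had ratios of 3.78 and 5.26 against 1.03 and 1.05 (log2 fold change 2.09, SE 0.272, limma-voom adjusted p = 0.00243) and was kept throughout. *Syp*, the RNA-binding protein of late neuroblasts, had ratios of 3.11 and 5.83 against 1.29 and 1.48 (1.63, SE 0.35). Its early counterpart *Imp* had 3.01 and 5.15 against 2.0 and 2.25, a log2 fold change of 0.89 that was not called. *slp2* (2.12), *svp* (1.60) and *br* (0.81) completed the calls with *hth*. *hb* (4.45), *pdm2* (3.98) and *Kr* (3.94) were not called; they had 0 counts in neuroblast-biased input replicate 1 and 5, 0 and 24 in replicate 2, so these values are poorly fixed. Of 18 nuclear receptor and ecdysone response genes 5 were called, *Kr-h1*, *gce* (2.24), *EcR*, *Hr4* (1.49) and *br*, and 2 to 9 when a library was left out.

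Neuronal fate factors had 11 of 48 members called, with a list median of 1.23 and 5 to 20 calls when a library was left out. *Lim1* had ratios of 6.94 and 10.5 against 1.40 and 1.42 (log2 fold change 2.64, SE 0.441), *dac* 3.49 and 5.44 against 1.05 and 1.12 (2.03, SE 0.365) and *oc* 3.87 and 4.47 against 1.10 and 1.15 (1.87, SE 0.293, limma-voom adjusted p = 0.00293). These were kept throughout, as were *ap* (2.19) and *Ets65A* (2.02). *Vsx1* (2.16), *otp* (2.02), *toy* (1.76), *vvl* (1.16) and *bab2* (1.13) were also called. *run*, a Runx factor, had ratios of 2.48 and 2.85 against 1.04 and 1.07, a log2 fold change of 1.35 (SE 0.387) that missed the threshold (limma-voom adjusted p = 0.0579).

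Among regulators of chromatin and RNA, 8 of 45 chromatin genes were called, although the median of the list was -0.02. The count was 1 with sample quality weights and 1 to 9 when a library was left out. The calls were the Polycomb group gene *ph-p*, with ratios of 3.23 and 4.66 against 1.32 and 1.23 (1.59, SE 0.27, kept throughout), *Psc* (1.31), *trx* (1.03), *psq* (1.40) and *jing* (1.14), with *HDAC4* (1.32), *simj* (1.07) and *nej*, the fly CBP (0.85). Of 38 RNA-binding proteins 4 were called, *bru3* (1.85), *Syp*, *mbl* (1.57) and *msi* (1.49); leaving out a library gave 0 to 16, and none of the 4 was kept throughout. Within the m6A machinery 2 of 8 genes were called. *fl(2)d*, a subunit of the methyltransferase complex that also acts in *Sxl* splicing, had ratios of 7.13 and 11.7 against 1.83 and 1.79 (log2 fold change 2.35, SE 0.377, limma-voom adjusted p = 0.00342, kept throughout), and *Ythdc1*, the nuclear reader, 2.67 and 4.45 against 1.13 and 1.36 (1.48). *Mettl14*, *nito*, *vir*, *Flacc*, *Hakai* and *Ythdf* lay between -0.43 and 0.44 and were not called.

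In the cell cycle list 4 of 35 genes were called. *CycD* had ratios of 2.19 and 3.26 against 0.554 and 0.522 (log2 fold change 2.34, SE 0.525, limma-voom adjusted p = 0.0186), from 148 and 155 counts in the neuroblast-biased inputs. *dap*, an inhibitor of Cyclin E and Cdk2, rose by 1.54, *fzr*, an activator of the anaphase-promoting complex, by 1.38 and *Rbf*, the retinoblastoma homologue, by 1.12. Mitotic genes such as *CycA* (-0.08), *CycB* (-0.07), *polo* (-0.56) and *Cdk1* (-1.21) were not called. The count was 0 with sample quality weights, with library size alone and without *Mettl3* null meRIP replicate 1, and 6 without neuroblast-biased meRIP replicate 1.

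Of 13 heat shock genes, *DnaJ-1* (1.71) and *Hsp68* (1.19) were called, a share of 15.4%. Of 14 cell death genes *Diap1* (0.83) was called, or 7.14%, and of 12 glycolysis genes *Pfk* (1.48), or 8.33%. Synaptic release had 1 of 24 called, *Syx1A* with ratios of 5.93 and 10.8 against 1.91 and 1.96 (2.02, SE 0.383), and ion channels 1 of 22, *nAChRalpha1* (1.72). Both shares, 4.17% and 4.55%, are near the 4.46% of all genes. Several of these single calls were lost under more than 12 of the 24 alternatives, *Diap1* under 18, *nAChRalpha1* under 17, *Hsp68* under 15 and *RpL35*, a ribosomal protein, under 13. None of the 8 neuron markers was called, with *brp* at 0.45, *nSyb* at 0.08 and *elav* at -0.34. Of 85 cytoplasmic ribosomal proteins only *RpL35* was called (1.02), and 0 of 71 mitochondrial ribosomal proteins, 0 of 68 respiratory chain genes and 0 of 34 proteasome genes. Under edgeR, DESeq2 and the other 6 settings run for lists, the last 3 had at most 1 call each.

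In input RNA, transcripts called higher in the immunoprecipitation tended to be less abundant in neuroblast-biased brains, relative to *Mettl3* null. Among all 9918 genes, 1042 (10.5%) were called up and 1566 (15.8%) down in neuroblast-biased input, and of the 442 these were 20 and 198. The median input log2 fold change was -0.65 for the 442 and -0.08 for all genes. Input is the denominator of the ratio, so the input change and the enrichment are not independent, and fewer cells of a type and less RNA per cell cannot be told apart in whole brains. Of the 25 called axon guidance genes 19 were lower in input and 0 higher, and of all 42 tested members of the list 28 were lower and 0 higher. *Fas2* fell by 1.99 on the log2 scale (limma-voom adjusted p = 7.66e-05) and *Dscam2* by 2.88. Summed neuron markers in the same inputs were 1106 and 1161 CPM against 4435 and 4838, and their part in these values was not tested. Of the 6 called self-renewal genes 2 were higher in input, *dpn* (1.68) and *klu* (1.97), and 1 lower, *hth* (-0.94). *N* (0.78), *svp* (2.39) and *mbl* (1.06) were called higher in both comparisons.

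**Figure D5:**
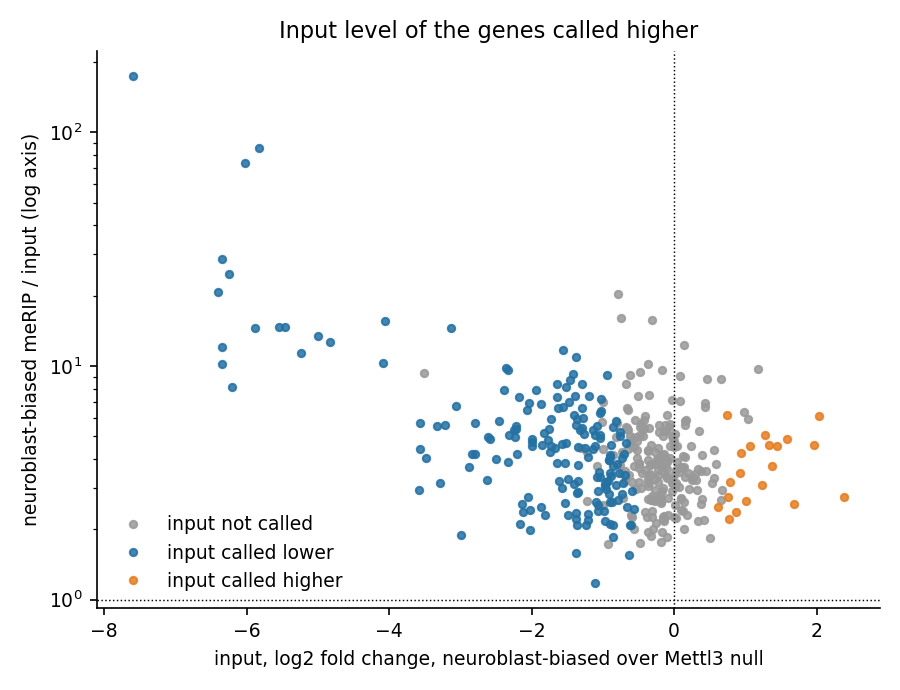
Input log2 fold change, neuroblast-biased over *Mettl3* null (x), and neuroblast-biased ratio of mean meRIP to mean input (y, log axis) for the 419 called genes with a defined ratio; blue genes were called lower in input, orange genes higher and grey genes were not called. All points lie above a ratio of 1, and the highest ratios are of genes with few input counts, such as *dpp* with 0 and 6.

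Values of wildtype brains are given side by side, and both enrichments were measured against the same *Mettl3* null libraries, so that they are not independent. The genes called higher had a median ratio of 3.56 in wildtype brains, and of 3.89 in neuroblast-biased brains over the 419 with a defined ratio. They were chosen for a high value in neuroblast-biased brains, so these medians do not compare the genotypes. Over all genes, 518 (5.22%) were called higher and 41 (0.413%) lower in wildtype over *Mettl3* null brains. In the lists, wildtype had 25 of 42 axon guidance genes called, 12 of 37 EGFR, FGF and MAPK genes, 9 of 30 Wnt genes, 13 of 48 neuronal fate factors, 7 of 25 temporal patterning genes, 11 of 38 RNA-binding proteins, 5 of 25 self-renewal genes and 2 of 35 cell cycle genes. The direct test of the ratio in neuroblast-biased against wildtype brains called 0 genes in either direction with limma-voom; 562 were higher and 112 lower at an unadjusted p under 0.05. edgeR called 2 higher, *Cipc* and *dpr20*, both with 0 counts in both neuroblast-biased inputs, and DESeq2 23 higher and 10 lower. Most of the higher DESeq2 calls also had 0 counts in both of these inputs. The lower DESeq2 calls included the better-counted *mt:ND4* (995 and 2023 counts there), *mt:ND5* (1125 and 1532), *CG46301* (5987 and 8799) and *aPKC* (3219 and 3720). Reads of *aPKC* in neuroblast-biased libraries may include those of the *UAS-aPKC* CAAX transgene. Counts per gene cannot separate these from reads of the endogenous gene, so its ratio is not that of the endogenous transcript alone. Among genes called against *Mettl3* null, the lowest p on the higher side of this difference belonged to *Ak3*, *Sod3*, *dpr20*, *Ugt302K1* and *beat-Vc*, none of which had a read in neuroblast-biased input, so no ratio was defined (limma-voom adjusted p = 0.692 for each). On the lower side they were *mt:ND5*, with a log2 difference of -3.10 (SE 0.561, limma-voom adjusted p = 0.266), and *Zmynd10*, *CG9626*, *Ptp52F* and *lncRNA:CR44042*, each with at most 53 input counts in any wildtype library.

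The ratios of some named genes did not overlap between neuroblast-biased and wildtype libraries and are given as values, chosen after they were seen; of 8790 genes with both ratios, 38.7% had both neuroblast-biased values above and 22.9% below both wildtype values. *Sp1* had 6.12 and 7.23 in neuroblast-biased against 3.16 and 3.29 in wildtype brains, a log2 difference of 1.06 (SE 0.319, limma-voom adjusted p = 0.692). *drl* had 4.77 and 5.87 against 2.80 and 2.24 (1.07, SE 0.391, limma-voom adjusted p = 0.692) and *CycD* 2.19 and 3.26 against 1.22 and 1.01 (1.25, SE 0.523, limma-voom adjusted p = 0.692). *fz* was the other way, with 3.71 and 6.44 against 7.09 and 9.81 (-0.73, SE 0.422). The ratios of *Fas2*, *Syp*, *EcR* and *mnb* overlapped, with log2 differences of -0.04, 0.04, 0.21 and -0.17. The intervals implied by these standard errors are wide, so a like ratio is not shown for any single gene.

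Further transcripts were included because they served as examples in earlier work on these data. *mnb*, a kinase of the DYRK family that acts in neuroblast proliferation, had ratios of 5.70 and 9.23 against 1.44 and 1.57 (log2 fold change 2.27, SE 0.334, limma-voom adjusted p = 0.0027). *otk*, a receptor-like protein of Wnt and plexin signalling, had 2.85 and 3.98 against 0.840 and 0.961 (1.92, SE 0.295) and *fra* 2.79 and 4.02 against 1.26 and 1.19 (1.44, SE 0.263). These and *Sp1* were kept throughout, *CycD* was lost under 5 of the 24 alternatives, and *run* was called under 3.

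Few genes moved the other way. Of the 24 called lower, 13 had at most 3 counts in both *Mettl3* null input libraries, 11 of these with 0 in both, and 9 had at least 10 counts in all 4 inputs. By the naming rule the largest falls among well-counted genes were the mitochondrial transcript *mt:ND5*, which fell by 2.35 on the log2 scale (ratios of 0.0201 and 0.0509 against 0.113 and 0.290, limma-voom adjusted p = 0.0375), FBgn0036660 by 1.87, *CG17508* by 1.82, the pseudogene *28SrRNA-Psi:CR45859* by 1.73 and *CG3702* by 1.58. For *mt:ND5*, the wildtype ratios of 0.238 and 0.272 were near the upper *Mettl3* null value. Reads of ribosomal RNA copies such as *28SrRNA-Psi:CR45859* may not be assigned to a single copy, so its value is uncertain. Each of the 5 lost its call under 11 to 15 of the 24 alternatives. The 24 were 1 with sample quality weights and between 2 and 180 when 1 library was left out, so that no group of genes can be described on this side.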

How the data were processed

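The authors deposited raw counts for 17807 genes in 12 libraries, used here without change. Their pipeline was Trimmomatic, then STAR on BDGP6, then featureCounts for meRIP; kallisto is named for input RNA, so the counter of the whole-number input values is uncertain. Versions and strandedness are not given in the sources used here. Fits used limma 3.58.1 (limma-voom) and edgeR 4.0.16 in R 4.3.3: filterByExpr with a minimum count of 10, TMM factors, a mean for each of the 6 groups, two-sided tests, Benjamini-Hochberg adjustment over 9918 genes, calls at adjusted p under 0.05. CPM used TMM-scaled totals. The members and lists were chosen with earlier results of these data known. Genes were named by rule: the 15 largest rises and 5 largest falls among calls with at least 10 CPM and non-overlapping ratios, up to 3 called members a list with the lowest adjusted p, up to 5 calls a direction with the lowest p in the ratio difference from wildtype (not run through the alternatives), the transcripts shown by the study, *Mettl3* and *aPKC*. Other list members, the families and the comparison genes were picked after their values were seen. Alternatives included DESeq2 1.42.0 and leaving out each library. Results of 1 list and 1 called gene are not reported here.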

Additional observations from a re-analysis of the deposited data

How the results depend on the processing

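The 442 and 24 genes called higher and lower became 746 and 116 with DESeq2, 177 and 1 with sample quality weights, 201 and 74 with library size alone, and 154 and 1 with the compared groups fitted alone; without the filter 89 were lower. Library size alone moved the median of all genes by -0.45 (log2) and the share of higher among all calls from 94.8% to 73.1%. When a library was left out with the tested genes held, 88 to 779 were higher and 2 to 180 lower; with the filter made again, which was run first, 62 to 831 and 3 to 353. Holding the genes was chosen after seeing those fits. The higher count moved over 1.5 times without *Mettl3* null meRIP replicate 1 (88) or 2 (272), *Mettl3* null input replicate 2 (289), neuroblast-biased input replicate 1 (243), neuroblast-biased meRIP replicate 1 (779), and wildtype input replicate 1 (279) or 2 (284). The 180 lower calls came without neuroblast-biased input replicate 2.

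The RNA of each genotype was divided between input and meRIP, but no source used here says that a shared number marks a shared RNA sample, and same-numbered libraries did not clearly deviate together (correlations of deviations 0.072 neuroblast-biased, 0.096 *Mettl3* null and -0.040 wildtype), so the pairing was not used in the main test. With a replicate block by number 555 genes were higher and 42 lower, and with a block of 6 pairs 577 and 20; 441 and 426 of the 442 were shared.

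The 1042 higher and 1566 lower genes of input were 677 and 1005 with the compared groups alone and 217 and 413 with quality weights. Leaving out a library gave 652 to 1361 and 910 to 1691 (filter made again, 650 to 1513 and 990 to 1755). The ratio difference from wildtype had 23 higher and 10 lower genes with DESeq2, 2 and 0 with edgeR, 10 and 0 without the filter, and 0 higher and 0 to 1 lower when a library was left out. The wildtype enrichment of 518 higher and 41 lower genes was 904 higher with the compared groups alone, 273 and 238 with library size alone, and lower in 118 with DESeq2, 26 with edgeR, 75 without the filter and 65 with upper-quartile factors; leaving out a library gave 41 to 768 and 0 to 64 (filter made again, 1 to 754 and 0 to 73). The cause of these changes was not tested. No named gene changed direction, and of 1608 values of named genes called higher 1349 kept and 259 lost the call.

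Depth and 2 libraries a group limit the ratios of genes with low input counts.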

Other observations

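Of the 442 genes called higher, 331 belonged to none of the 26 lists, and some fell into families of cell-surface proteins that were picked by symbol after the values were seen, so that no test applies. Of 6 tested members of the kekkon family of leucine-rich repeat proteins 4 were called, *kek1*, *kek2*, *kek5* and *kek6*, with log2 fold changes of 1.32 to 1.86. Of 8 Sidestep family members 3 were called, *side*, *side-II* (2.13) and *side-VI*, and of 13 Beaten path members, among which are their receptors, 3. The dpr family, whose immunoglobulin proteins bind the DIP family on partner neurons, had 6 of 21 called, for example *dpr11* (2.23) and *dpr12* (1.96), while 0 of 11 DIP genes were called although their median was 1.79. Both tested G protein-coupled receptor kinases were called, *Gprk2* with ratios of 4.15 and 6.06 against 1.28 and 1.22 (log2 fold change 1.99) and *Gprk1* with 1.09 and 2.37 against 0.284 and 0.603. Long non-coding RNAs had 12 of 339 called, or 3.54%, against the 4.46% of all genes tested.

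Genes without reads in neuroblast-biased input are given apart, as no ratio was defined for them. Of all 9918 genes tested, 900 had no reads in either neuroblast-biased input, and 23 of these are among the 442. That share is below the 4.46% of all genes tested. *dpr20* had 0 and 0 counts there beside 360 and 511 in neuroblast-biased meRIP and 277 and 272 in *Mettl3* null input. With a floor of 3 counts set in each neuroblast-biased input library, its enrichment was 70.1-fold higher. *CG43850*, with 0 and 0 input and 334 and 355 meRIP counts, was 83.9-fold higher by the same floor, and *Sod3* 14.1-fold. The floors cover counting error of these inputs only, and the other values in the fold are point estimates, so the folds are not lower bounds. Whether these genes were unsequenced or set to 0 in the counting cannot be told from the table. The reverse was seen among the 24 called lower, where *CG5880* had 90 and 69 input counts in neuroblast-biased brains against 0 and 0 without *Mettl3*.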
